A study of Mus musculus with 4 samples.

Results

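The S phase and mitosis genes described here are 49 mouse genes, all found by symbol among the 31053 genes that both deposited matrices list. Of these, 19 are read as S phase genes and 28 as G2/M genes. Stmn1, which encodes a microtubule destabiliser, and Hmgb2, which encodes a chromatin protein, were put in neither list. The genes were counted in immune cells sorted by FACS from breast tumours. The mice were FVB/NJ and 12 weeks old. The tested genotype is labelled Jagged1/PyMT and the one it is set against PyMT, the polyoma middle T antigen that drives the mammary tumours of both. The labels do not say which promoter or which cells carry the Jagged1 allele. They list 2 samples for each genotype, whose cells share 1 matrix with no mark of their origin. With 1 library for a genotype, no test of the genotype could be made, and the intervals given are 95% intervals that cover counting error only.

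A cell that divides copies its DNA in S phase and separates the copies in mitosis, and the genes for the machinery are switched on just before they are needed. At the start of S phase, E2F factors freed from retinoblastoma family proteins bind promoters of genes for DNA replication. Mitotic genes stay silent until G2, when the MuvB complex with B-Myb and FoxM1 acts on a promoter element called the CHR, often beside CCAAT boxes bound by NF-Y. In tumours, resident and monocyte-derived macrophages can divide in place, T cells divide after they meet antigen, and circulating neutrophils are past division.

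The promoters of the members carry these elements, and 5 are shown, chosen after their matches were seen because the matches lie close before the transcript start. Mcm6 (a subunit of the replicative helicase) and Rrm1 (the large subunit of ribonucleotide reductase) are S members, and Mki67 (the chromosome surface protein Ki-67), Top2a (topoisomerase II alpha) and Kif11 (the kinesin that pushes spindle poles apart) are G2/M members. Each line gives the 120 bases before the RefSeq transcript start of the gene, 5′ to 3′ on its own strand, in build GRCm38.p6. Capitals mark matches to the E2F, CHR or CCAAT box letters on either strand.
Mcm6 (chr1:128359706-128359825, minus strand): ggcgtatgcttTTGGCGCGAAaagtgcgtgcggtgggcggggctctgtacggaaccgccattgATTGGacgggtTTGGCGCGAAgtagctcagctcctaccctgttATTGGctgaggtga
Rrm1 (chr7:102441575-102441694, plus strand): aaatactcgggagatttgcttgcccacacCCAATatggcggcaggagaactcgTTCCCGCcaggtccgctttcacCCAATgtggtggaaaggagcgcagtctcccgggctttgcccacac
Mki67 (chr7:135716380-135716499, minus strand): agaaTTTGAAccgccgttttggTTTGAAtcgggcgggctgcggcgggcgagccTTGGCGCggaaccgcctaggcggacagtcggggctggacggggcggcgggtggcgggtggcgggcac
Top2a (chr11:99024190-99024309, minus strand): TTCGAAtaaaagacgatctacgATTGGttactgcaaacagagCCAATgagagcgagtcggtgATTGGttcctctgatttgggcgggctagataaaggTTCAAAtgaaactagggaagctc
Kif11 (chr19:37376262-37376381, plus strand): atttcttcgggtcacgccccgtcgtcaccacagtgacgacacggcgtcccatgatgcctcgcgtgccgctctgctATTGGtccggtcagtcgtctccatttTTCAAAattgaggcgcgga
Mcm6 holds the E2F letters TTGGCGC and, overlapping them, a match on the other strand, at 2 places. Top2a holds CHR letters at 2 places with 3 CCAAT box matches between them.

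Matches were counted in windows of 300 bases, 250 before and 50 after the start, in the 41 members with a RefSeq promoter in the table used (16 S genes, 24 G2/M genes and Hmgb2). The E2F letters were TTGGCGC and the variants with other middle bases, which read TTCCCGC for one, then TTCGCGC for another, and last of all TTGCCGC, on both strands. They were found in 10 of 16 S genes (62.5%) and in 8 of 24 G2/M genes (33.3%), against 10.9% of all 27025 genes in the table. The CHR letters (TTTGAA or TTCGAA, both strands) were found in 3 of 16 S genes (18.8%) and in 18 of 24 G2/M genes (75%), against 21.7% of all genes. CCAAT boxes (CCAAT, both strands) were in 75% of the genes of both lists and in 41.1% of all genes. A CHR and a CCAAT box together were in 16 of 24 G2/M genes, 3 of 16 S genes and 8.61% of all genes. E2F letters were thus the more frequent in S genes and CHR letters in G2/M genes. A match is a run of letters and not evidence of binding. Mcm4, Ccne2, Gins2, Ccna2, Aurkb, Tpx2, Smc4 and Stmn1 were not matched.

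**Figure D1:**
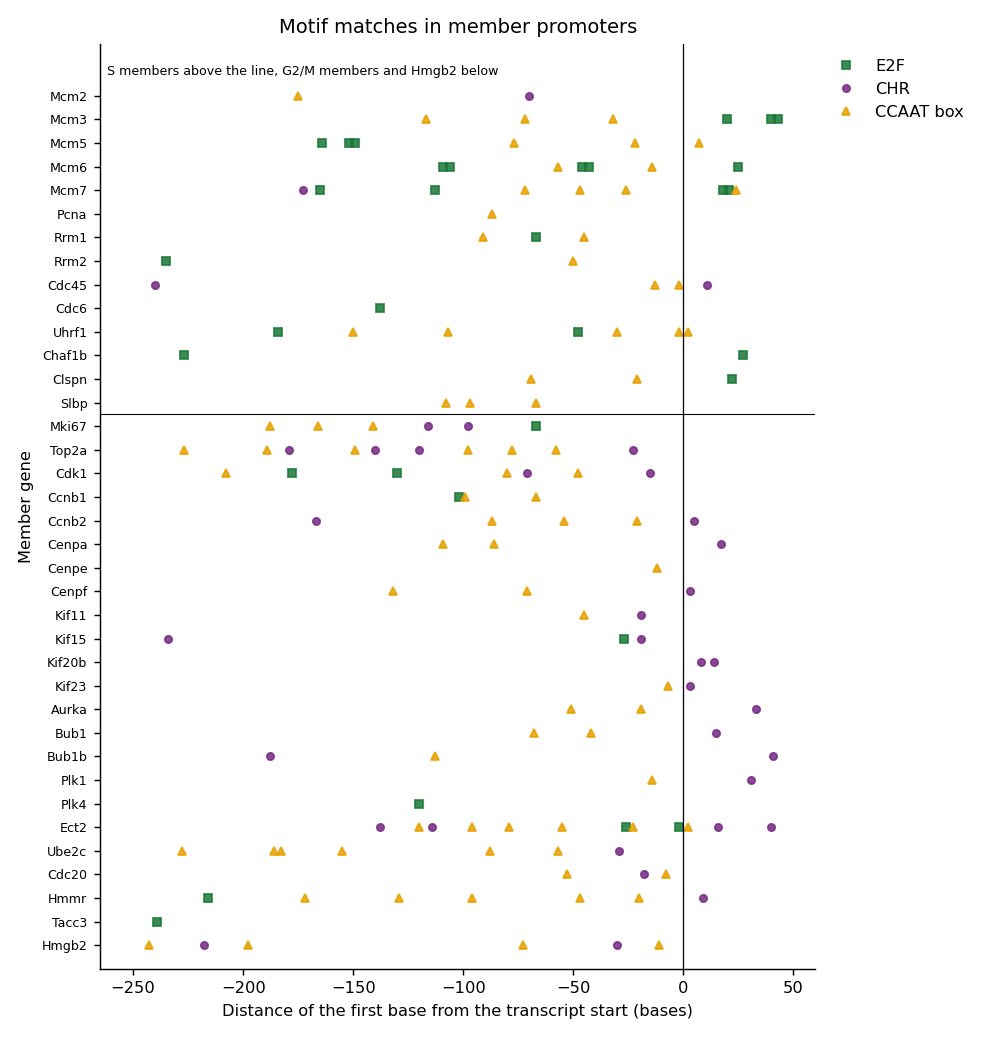
Each point is a match to an E2F, CHR or CCAAT box motif, placed by the distance in bases of its first letter from the RefSeq transcript start (x axis), for the 37 members with at least 1 match (rows). E2F squares lie mostly in the rows of S members, and CHR circles mostly in the rows of G2/M members.

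The Jagged1/PyMT library held 55506773 UMIs and the PyMT library 36012036. Kept barcodes (at least 500 UMIs and 250 genes and at most 10% mitochondrial UMIs) numbered 7875 in Jagged1/PyMT, with a median of 4200 UMIs, and 7444 in PyMT, with a median of 3841. Jag1 itself had 16.8 CPM (UMIs of a gene per 1000000 UMIs; interval 15.7 to 17.9) in Jagged1/PyMT and 1.96 CPM (1.52 to 2.49) in PyMT, the order that the labels name. The libraries shared 70 barcodes, against 79.5 expected by chance. Barcodes were put in classes by fixed marker genes, and classes are called "-like" since no protein was measured. A barcode that passed the gates of more than 1 lineage was set apart as mixed. Free RNA, read from barcodes under 100 UMIs, held the S members at 319 CPM and the G2/M members at 525 CPM in Jagged1/PyMT, against 339 and 386 CPM in PyMT.

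A barcode was called dividing when, thinned to 1000 UMIs, it held at least 3 UMIs over at least 2 of the 47 S and G2/M members. By this rule 456 barcodes were dividing in Jagged1/PyMT (5.97% of those with 1000 UMIs) and 238 in PyMT (3.26%). Their makeup differed: macrophage-like barcodes were 51.1% (46.4 to 55.8) of the dividing barcodes in Jagged1/PyMT and 3.36% (1.46 to 6.52) in PyMT, while T-like barcodes were 18.9% (15.4 to 22.8) in Jagged1/PyMT and 72.7% (66.6 to 78.2) in PyMT. With at least 5 UMIs over 3 members, 189 barcodes (2.48%) were dividing in Jagged1/PyMT and 41 (0.562%) in PyMT. Of these, macrophage-like barcodes were 61.9% (54.6 to 68.9) in Jagged1/PyMT and 12.2% (4.08 to 26.2) in PyMT. T-like barcodes were 13.2% (8.75 to 18.9) in Jagged1/PyMT and 65.9% (49.4 to 79.9) in PyMT. These shares follow the classes' sizes as well as their division, since 1782 kept barcodes were macrophage-like in Jagged1/PyMT and 183 in PyMT, and 2591 were T-like in Jagged1/PyMT against 4829 in PyMT.

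Within the macrophage-like class, 233 of 1680 barcodes (13.9%, exact interval 12.3 to 15.6) were dividing in Jagged1/PyMT, against 8 of 147 (5.44%, 2.38 to 10.4) in PyMT. The ratio was 2.55-fold (1.29 to 5.05). With a stricter rule of 5 UMIs over 3 members, 117 barcodes (6.96%, 5.79 to 8.29) remained in Jagged1/PyMT and 5 (3.40%, 1.11 to 7.76) in PyMT, a ratio of 2.05-fold whose interval (0.850 to 4.93) includes no difference. Without thinning, 49.8% of macrophage-like barcodes in Jagged1/PyMT and 26.8% in PyMT met the first rule. The macrophage-like barcodes were deeper in Jagged1/PyMT, with a median of 7290 UMIs against 2912 in PyMT, and the part of RNA content or droplet quality in the difference was not tested. Among barcodes of 2000 to 8000 UMIs, a range chosen after seeing the data, 78 of 655 (11.9%) were dividing in Jagged1/PyMT and 3 of 64 (4.69%) in PyMT, with a log2 ratio of 1.35 and an interval of −0.28 to 2.97. The 5 PyMT barcodes under the strict rule limit every statement on dividing macrophage-like cells of that genotype.

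Neutrophil-like barcodes gave a background of the call for their own class. They do not set it for T-like barcodes, which held more RNA of some members. Smc4, a condensin subunit, had 9.85 CPM in neutrophil-like and 185 CPM in T-like barcodes of Jagged1/PyMT, and 50.9 and 235 CPM in PyMT. Of neutrophil-like barcodes, 2 of 175 (1.14%) in Jagged1/PyMT and 1 of 74 (1.35%) in PyMT met the first rule. Their median depths were 2457 UMIs in Jagged1/PyMT and 2410 UMIs in PyMT, and none in either library met the strict rule. The exact upper limit of that count of 0 is a share of 2.09% in Jagged1/PyMT and 4.86% in PyMT. Among B-like barcodes, 8 of 1256 (0.637%, 0.275 to 1.25) were dividing in Jagged1/PyMT and 18 of 1377 (1.31%, 0.777 to 2.06) in PyMT. Under the strict rule these were 1 and 0 barcodes, and the B-like shares by the first rule were no higher than those of neutrophil-like barcodes.

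In the T-like class the order of the genotypes turned with the rule. By the first rule 86 of 2555 barcodes (3.37%, 2.70 to 4.14) were dividing in Jagged1/PyMT and 173 of 4803 (3.60%, 3.09 to 4.17) in PyMT, a ratio of 0.934-fold (0.725 to 1.20). By the strict rule 25 barcodes (0.978%, 0.634 to 1.44) were dividing in Jagged1/PyMT and 27 (0.562%, 0.371 to 0.817) in PyMT, a ratio of 1.74-fold (1.01 to 2.99). Another rule was added after seeing these values. It used the 36 members under 10 CPM in B-like barcodes of both libraries together (10 S and 26 G2/M genes, called cycle-restricted here) and asked for 2 UMIs over 2 genes. The name rests on B-like barcodes alone, and the 36 include Kif23 and Plk4. In T-like barcodes that were not dividing lay 228 of 290 Kif23 UMIs in Jagged1/PyMT and 832 of 949 in PyMT. For Plk4 these were 56 of 82 in Jagged1/PyMT and 133 of 228 in PyMT. The cycle-restricted rule found 32 T-like barcodes (1.25%, 0.858 to 1.76) in Jagged1/PyMT and 34 (0.708%, 0.491 to 0.988) in PyMT, a ratio of 1.77-fold (1.09 to 2.86). The same rule found 209 macrophage-like barcodes (12.4%) in Jagged1/PyMT and 8 (5.44%) in PyMT, a ratio of 2.29-fold (1.15 to 4.54), and in B-like barcodes it found 2 in Jagged1/PyMT and 1 in PyMT. Its genes were chosen for low levels in B-like barcodes, so low counts there were set in advance and give no background for the rule.

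Among the T-like subsets, barcodes with a Foxp3 UMI and no Cd8 UMI (regulatory T-like; Foxp3 is the master regulator of regulatory T cells) had the highest shares in both libraries. Of these, 8 of 41 (19.5%, 8.82 to 34.9) were dividing in Jagged1/PyMT and 13 of 87 (14.9%, 8.20 to 24.2) in PyMT, and the ratio of 1.31-fold had an interval of 0.588 to 2.90. The gate took any Foxp3 UMI before thinning, so a deeper barcode enters this subset more easily. Strictly dividing T-like barcodes were deeper than other T-like ones, and the part of depth in these shares was not tested. In CD8 T-like barcodes 31 of 782 (3.96%) were dividing in Jagged1/PyMT and 41 of 1319 (3.11%) in PyMT, a ratio of 1.28-fold (0.807 to 2.02). In CD4 T-like barcodes 16 of 690 (2.32%) were dividing in Jagged1/PyMT and 46 of 1406 (3.27%) in PyMT, a ratio of 0.709-fold (0.404 to 1.24). By the cycle-restricted rule the CD4 T-like count was 5 in Jagged1/PyMT against 2 in PyMT. No interval of a subset's ratio by the first rule excludes equal shares. T-like barcodes of Jagged1/PyMT carried more macrophage RNA, with the 8 macrophage markers summing to 203 CPM in its strictly dividing T-like barcodes against 44.6 CPM in those of PyMT, while strictly dividing macrophage-like barcodes held 13167 CPM in Jagged1/PyMT and 14470 CPM in PyMT. The part of that RNA in the T-like values was not tested.

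**Figure D2:**
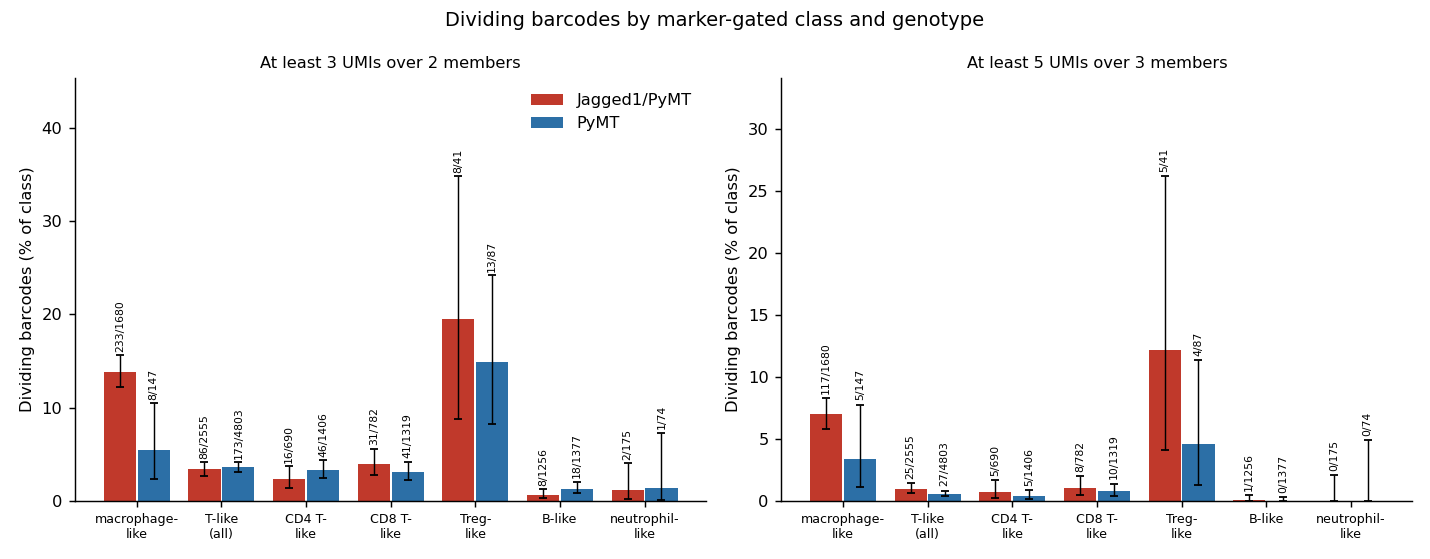
Bars show the percent of barcodes called dividing in each class (y axis) in Jagged1/PyMT (red) and PyMT (blue), with exact binomial 95% intervals for counting error and the counts behind each bar. The macrophage-like share was 13.9% in Jagged1/PyMT and 5.44% in PyMT by the first rule (left), while the T-like share was 3.37% in Jagged1/PyMT and 3.60% in PyMT by the first rule, and 0.978% in Jagged1/PyMT and 0.562% in PyMT by the strict rule (right).

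The members themselves were then compared between genotypes over all barcodes of a class, as CPM of the class total. A gene was counted as higher or lower past 1.5-fold, among genes with at least 50 UMIs over both libraries. In macrophage-like barcodes 48 of the 49 members passed that filter (Ccne2 did not), 24 were over 1.5-fold higher in Jagged1/PyMT and 0 were over 1.5-fold lower. Of all 9510 genes that passed, 15.0% were that much higher and 10.3% that much lower. The median log2 ratio was 0.57 over the members and 0.06 over all genes, with genes at 0 UMIs in a library set to a floor of 3 counts there. With the dividing barcodes left out, 30 members passed the filter, 17 were higher and 1 lower, and their median was 0.71. Over the same 48 members as before, the barcodes that were not dividing gave 21 higher, 10 lower and a median of 0.49. The median over all genes there was 0.07, and no share of all genes is given for these barcodes. Among the lower ones, Ccne1 (26 UMIs in Jagged1/PyMT), Kif20b (19), Plk1 (27) and Ect2 (15) had 0 UMIs in PyMT. They count as lower only through the floor of 3 counts there. Kif11 (12 UMIs in Jagged1/PyMT, 3 in PyMT) and Bub1b (22 in Jagged1/PyMT, 3 in PyMT) also rest on few UMIs. Ccnb1, Cenpf and Aurka were lower too, with 4, 6 and 5 UMIs in PyMT. Mki67, the best counted of the lower ones, had 281 UMIs in Jagged1/PyMT and 29 in PyMT (log2 −0.69). The lists differed in these barcodes. Of 18 S members 10 were higher and 1 lower (median 0.71), and of 28 G2/M members 11 were higher and 9 lower (median −0.01).

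By role, the helicase subunits Mcm2 to Mcm7, which unwind DNA at the fork, summed to 199 CPM in Jagged1/PyMT macrophage-like barcodes and 129 CPM in PyMT ones, a ratio of 1.55-fold (1.29 to 1.87). Mcm2 had 388 UMIs (24.1 CPM) in Jagged1/PyMT and 10 UMIs (10.5 CPM) in PyMT, a log2 ratio of 1.21 (0.31 to 2.28). Of the nucleotide suppliers, Tyms, which makes thymidylate, had 35.6 CPM in Jagged1/PyMT and 15.7 CPM in PyMT, a log2 ratio of 1.18 (0.45 to 2.03). Rrm2, the regulated subunit of ribonucleotide reductase, had 27.8 CPM in Jagged1/PyMT and 15.7 CPM in PyMT (log2 0.83, 0.09 to 1.68), while Rrm1 had 28.6 CPM in Jagged1/PyMT and 22.0 CPM in PyMT with an interval that spans 0 (log2 0.38, −0.25 to 1.09). The sliding clamp Pcna was nearly level, with 80.0 CPM in Jagged1/PyMT and 77.4 CPM in PyMT (log2 0.05, −0.29 to 0.41).

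Some S members had few or no UMIs in PyMT macrophage-like barcodes. Cdc45, part of the active helicase, had 87 UMIs in Jagged1/PyMT macrophage-like barcodes and 0 in PyMT ones, which is 1.73-fold higher against a floor of 3 counts in the PyMT library, and at least 1.37-fold higher by the exact interval. Ccne1, the cyclin that drives entry into S phase, had 76 UMIs in Jagged1/PyMT and 0 in PyMT, 1.51-fold higher on the same floor and at least 1.20-fold higher by the exact interval. Chaf1b, a subunit of the chromatin assembly factor, had 125 UMIs in Jagged1/PyMT and 3 in PyMT, a ratio of 2.48-fold with an interval of 0.829 to 12.2.

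Of the mitotic members in macrophage-like barcodes, Top2a had 1028 UMIs (63.9 CPM) in Jagged1/PyMT and 29 UMIs (30.3 CPM) in PyMT, a log2 ratio of 1.08 (0.55 to 1.66). Mki67 had 1451 UMIs (90.2 CPM) in Jagged1/PyMT and 60 UMIs (62.7 CPM) in PyMT, a log2 ratio of 0.52 (0.15 to 0.92). In barcodes thinned to 1000 UMIs, 4.70% held an Mki67 UMI in Jagged1/PyMT and 3.40% in PyMT, and no neutrophil-like barcode of either library held one at any depth. Cenpe, the kinesin at kinetochores, had 25.6 CPM in Jagged1/PyMT and 11.5 CPM in PyMT (log2 1.16, 0.30 to 2.17). Plk1, a kinase that acts throughout mitosis, had 212 UMIs in Jagged1/PyMT and 5 in PyMT (log2 1.33, 0.09 to 2.97), and Bub1, a kinase of the spindle checkpoint, had 180 in Jagged1/PyMT and 4 in PyMT (log2 1.42, 0.04 to 3.31). Cdc20, the activator of the anaphase-promoting complex, had 16.9 CPM in Jagged1/PyMT and 7.32 CPM in PyMT (log2 1.21, 0.15 to 2.54). Its partner Ube2c, the ubiquitin-conjugating enzyme of that complex, had 68.1 CPM in Jagged1/PyMT and 56.4 CPM in PyMT (log2 0.27, −0.12 to 0.69).

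The highest and lowest ratios rest on few PyMT UMIs. Kif20b, a kinesin of cytokinesis, had 123 UMIs in Jagged1/PyMT and 1 in PyMT, a ratio of 7.32-fold with an interval of 1.29 to 291. Ect2, the exchange factor that places the cleavage furrow, had 88 UMIs in Jagged1/PyMT and 1 in PyMT, with an interval of 0.915 to 209 around 5.23-fold. The lowest ratios were those of Kif23 (log2 −0.50, −1.16 to 0.24), Kif15 (log2 −0.43, −1.35 to 0.67), Cenpf (log2 −0.15, −0.79 to 0.56), Cdc6 (log2 −0.01, −1.64 to 2.31) and Kif11 (log2 0.03, −0.99 to 1.27), and the interval of each spans 0. In all, 19 of the 48 members had an interval above 0 and 0 had one below 0. No such share of all genes is given beside it, so this count is not a test. The UMIs of 1 cell are not independent: 51 of the 63 Birc5 UMIs in PyMT lay in 5 strictly dividing barcodes.

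Outside the call, Hmgb2 had 5833 UMIs (363 CPM) in Jagged1/PyMT macrophage-like barcodes and 218 UMIs (228 CPM) in PyMT ones, a ratio of 1.59-fold (1.39 to 1.83). Stmn1 had 66.7 CPM in Jagged1/PyMT and 53.3 CPM in PyMT, a ratio of 1.25-fold (0.945 to 1.69).

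In T-like barcodes 48 members passed the filter (Bub1 did not), 29 were over 1.5-fold higher in Jagged1/PyMT and 2 over 1.5-fold lower, against 8.36% and 5.78% of all 9928 genes that passed. The median log2 ratio was 0.77 over the members and 0.01 over all genes. With the dividing barcodes left out, 25 members passed the filter, 8 were over 1.5-fold higher and 2 lower, and the median over them was 0.00. Over the same 48 members as before, the barcodes that were not dividing gave 22 higher, 5 lower and a median of 0.48. Some of the higher ones rest on few UMIs there. Clspn had 9 in Jagged1/PyMT and 3 in PyMT, Cdk1 10 and 4, and Ccnb2 10 and 5, while Mcm2 had 187 and 224. Thinned to 1000 UMIs, 16 members passed, 2 were higher and 4 lower, and their median was −0.22. No share of all genes is given for the barcodes that were not dividing or for the thinned ones.

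The 2 sets of members behind the call gave opposite orders in T-like barcodes. The cycle-restricted members summed to 333 CPM in Jagged1/PyMT T-like barcodes and 221 CPM in PyMT ones, a ratio of 1.51-fold (1.44 to 1.57). Of the 35 that passed the filter, 28 were over 1.5-fold higher and 2 lower (Kif23 and Plk4), against 8.36% and 5.78% of all genes. The other 11 S and G2/M members (Mcm2 to Mcm7, Pcna, Rrm1, Slbp, Cenpa and Smc4) summed to 604 CPM in Jagged1/PyMT and 670 CPM in PyMT, a ratio of 0.902-fold (0.877 to 0.929). In the macrophage-like class both sets were higher in Jagged1/PyMT, at 1.49-fold (1.36 to 1.63) for the cycle-restricted members and 1.32-fold (1.19 to 1.46) for the others. These intervals, and those of roles and single members, treat UMIs as independent, which those of 1 cell are not. Of Mki67 UMIs in T-like barcodes, 290 of 328 in Jagged1/PyMT lay in 25 strictly dividing barcodes. In PyMT 186 of 295 lay in 27. Counted by barcode, the cycle-restricted rule gave a T-like ratio of 1.77-fold with a wider interval (1.09 to 2.86).

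The mitotic cyclins and Cdk1, the kinase they activate, summed to 35.7 CPM in Jagged1/PyMT T-like barcodes and 16.4 CPM in PyMT ones, a ratio of 2.18-fold (1.88 to 2.52), the highest of the role groups in this class. Other groups had lower sums in Jagged1/PyMT. The kinesins stood at 0.763-fold (0.683 to 0.851), though 3 of 4 were over 1.5-fold higher and 1 lower. Kinetochore and checkpoint genes stood at 0.806-fold (0.739 to 0.878). The group of Pcna, Uhrf1, Chaf1b and Slbp stood at 0.879-fold (0.830 to 0.931), and that of Mki67, Top2a, Nusap1 and Smc4 at 0.926-fold (0.885 to 0.969). Ccnb2, a B cyclin, had 130 UMIs (11.4 CPM) in Jagged1/PyMT and 89 UMIs (4.24 CPM) in PyMT, a log2 ratio of 1.43 (1.03 to 1.83). Hmmr, a spindle-associated hyaluronan receptor, had 42 UMIs in Jagged1/PyMT and 31 in PyMT (log2 1.32, 0.61 to 2.04). Plk1 had 40 UMIs in Jagged1/PyMT and 31 in PyMT (log2 1.25, 0.53 to 1.97), Kif15, a kinesin of the bipolar spindle, had 59 in Jagged1/PyMT and 48 in PyMT (log2 1.18, 0.60 to 1.76), and Cdk1 had 89 in Jagged1/PyMT and 78 in PyMT (log2 1.07, 0.62 to 1.53). Mki67 had 328 UMIs (28.8 CPM) in Jagged1/PyMT and 295 UMIs (14.1 CPM) in PyMT, a log2 ratio of 1.03 (0.80 to 1.26). Among S members, Rrm2 had 28.0 CPM in Jagged1/PyMT and 15.2 CPM in PyMT (log2 0.88, 0.65 to 1.10), and Ccne1 had 57 UMIs in Jagged1/PyMT and 52 in PyMT (log2 1.01, 0.44 to 1.58).

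The 5 lowest ratios in T-like barcodes were those of Kif23, Plk4, Cenpa, Aurka and Slbp. Kif23, a kinesin of the midbody, had 290 UMIs (25.4 CPM) in Jagged1/PyMT and 949 UMIs (45.2 CPM) in PyMT, a log2 ratio of −0.83 (−1.03 to −0.64). Plk4, the kinase of centriole duplication, had 82 UMIs in Jagged1/PyMT and 228 in PyMT (log2 −0.60, −0.98 to −0.23), and Cenpa, the centromeric histone H3, had 577 in Jagged1/PyMT and 1538 in PyMT (log2 −0.53, −0.67 to −0.40). Aurka, a spindle pole kinase, had 20 UMIs in Jagged1/PyMT and 51 in PyMT with an interval that spans 0 (log2 −0.47, −1.29 to 0.30). Slbp, which binds the stem-loop of histone RNAs, had 77.6 CPM in Jagged1/PyMT and 102 CPM in PyMT (log2 −0.39, −0.50 to −0.27).

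Of these 5 genes, all but Aurka in Jagged1/PyMT had most of their UMIs outside the dividing barcodes. Of Kif23, 228 UMIs in Jagged1/PyMT and 832 in PyMT were in T-like barcodes that were not dividing, and of Mki67 17 in Jagged1/PyMT and 23 in PyMT. Smc4, a condensin subunit, had 1758 such UMIs in Jagged1/PyMT and 4311 in PyMT, and its log2 ratio over all T-like barcodes was −0.35 (−0.42 to −0.27). Kif23, Slbp and Cenpa also had UMIs in neutrophil-like barcodes: Slbp had 54.9 CPM there in Jagged1/PyMT and 92.6 CPM in PyMT, and Kif23 26.7 CPM in Jagged1/PyMT and 32.4 CPM in PyMT. In free RNA Kif23 had 10.2 CPM in Jagged1/PyMT and 18.6 CPM in PyMT, both below the level in T-like barcodes of the same library. So was Slbp, with 56.9 CPM in Jagged1/PyMT and 71.6 CPM in PyMT. Plk4 had 10.7 CPM in free RNA against 7.19 CPM in T-like barcodes of Jagged1/PyMT, and 17.7 against 10.9 CPM in PyMT. For Cenpa these were 62.8 against 50.6 CPM in Jagged1/PyMT, and 72.5 against 73.3 CPM in PyMT. For Aurka they were 6.81 against 1.75 CPM in Jagged1/PyMT, and 0.884 against 2.43 CPM in PyMT. Kif23, Slbp, Cenpa and Smc4 all count in the first rule.

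In CD4 T-like barcodes Mki67 had 65 UMIs in Jagged1/PyMT and 27 in PyMT (log2 2.34, 1.67 to 3.04) and Rrm2 had 100 in Jagged1/PyMT and 41 in PyMT (log2 2.36, 1.82 to 2.92). In CD8 T-like barcodes Mki67 had 78 UMIs in Jagged1/PyMT and 88 in PyMT (log2 0.52, 0.06 to 0.98) and Rrm2 had 74 in Jagged1/PyMT and 99 in PyMT (log2 0.27, −0.18 to 0.72). The UMIs of 1 cell are not independent, and the CD4 T-like sums include 5 strictly dividing barcodes in each library.

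In B-like barcodes 15 members passed the filter, with 0 over 1.5-fold higher and 1 lower, against 4.51% and 6.10% of all 7907 genes that passed. The lower one was Cenpa, with 214 UMIs (51.1 CPM) in Jagged1/PyMT and 399 UMIs (80.2 CPM) in PyMT, a log2 ratio of −0.65 (−0.90 to −0.41). Plk1 and Ccnb2 had 0 UMIs in the B-like barcodes of both libraries.

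**Figure D3:**
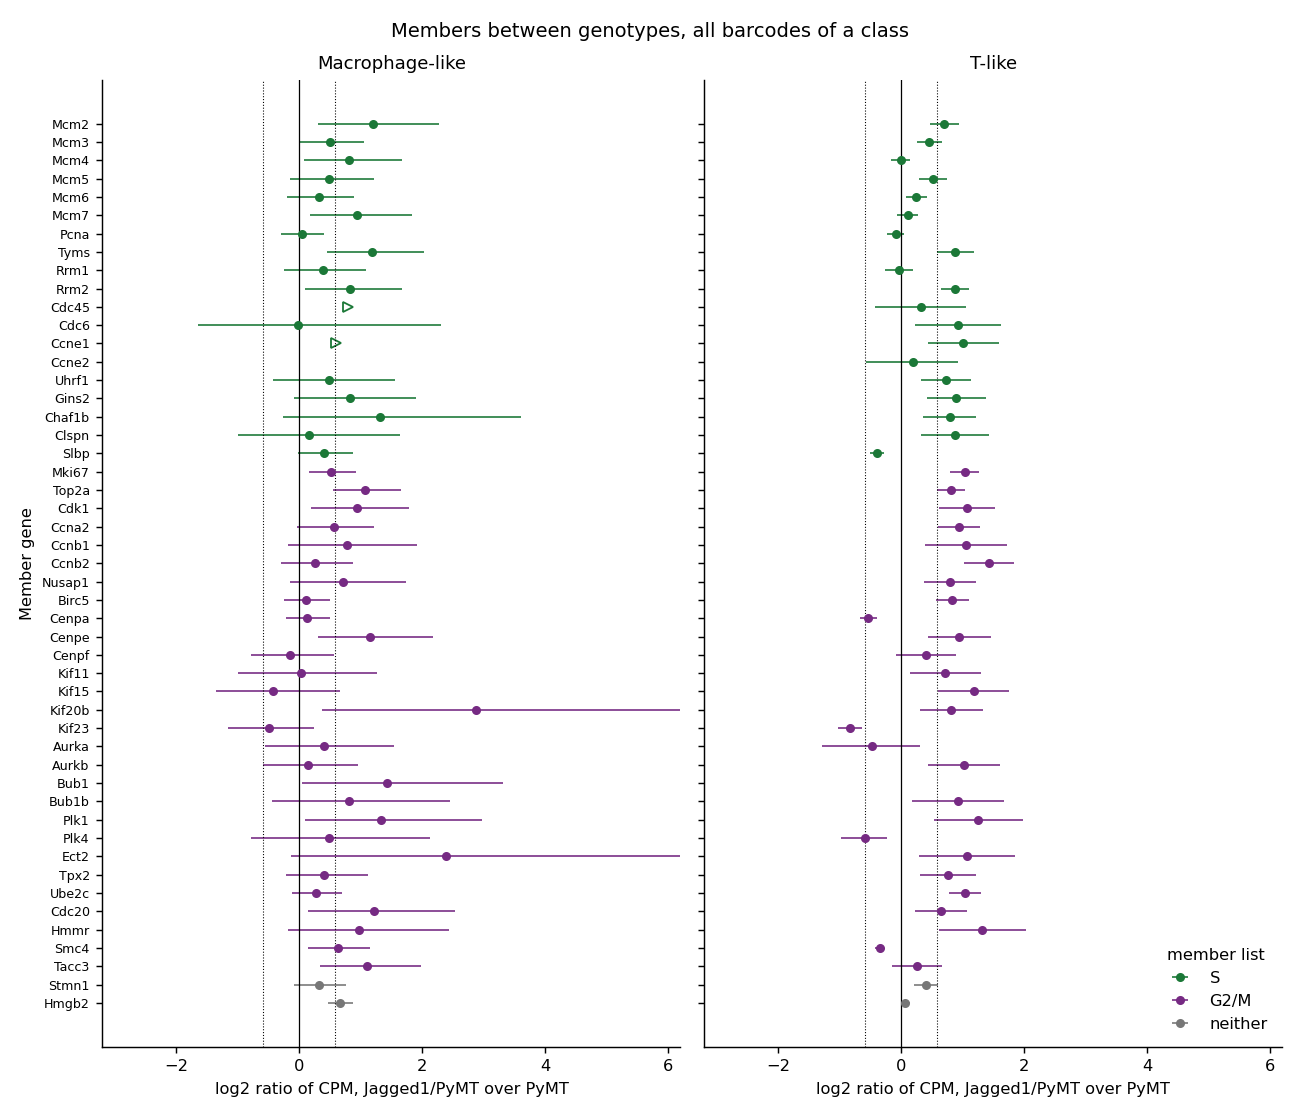
Points give the log2 ratio of CPM, Jagged1/PyMT over PyMT, of each member with at least 50 UMIs (x axis) with its exact conditional 95% interval for counting error, in macrophage-like (left) and T-like barcodes (right). Dotted lines mark 1.5-fold, open triangles set members with 0 UMIs in PyMT against a floor of 3 counts, and the intervals of Kif20b and Ect2 run off the left panel. In T-like barcodes Kif23, Plk4, Cenpa, Slbp and Smc4 lie left of 0 with their intervals, and 29 members lie right of the 1.5-fold line.

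Beyond the members, 4 fixed lists of other cell cycle genes were read in strictly dividing barcodes against barcodes that were not dividing, within a class and library. The rule that chose the barcodes did not use these genes, but they were counted in the same cells, and dividing barcodes were deeper (a median of 13011 UMIs against 7696 in Jagged1/PyMT macrophage-like barcodes). In that class 16.1% of all 9256 genes tested were over 1.5-fold higher in dividing barcodes and 11.8% lower. Of the 34 further S genes 30 passed the filter and 27 were higher, and of the 39 further G2/M genes 37 passed and 37 were higher. Tk1, the thymidine kinase of S phase, had 151 CPM in dividing and 9.86 CPM in other barcodes (15.4-fold, 12.4 to 19.1), and Asf1b, a histone chaperone, had 99.4 CPM in dividing and 6.80 CPM in other barcodes. Cdca8, a subunit of the chromosomal passenger complex, had 206 CPM in dividing and 10.9 CPM in other barcodes (19.0-fold, 15.6 to 23.2). Lmnb1, a nuclear lamin, had 317 CPM in dividing and 105 CPM in other barcodes. In PyMT 5 macrophage-like barcodes were strictly dividing, where 0 of 34 further S genes and 3 of 39 further G2/M genes reached 50 UMIs, so no counts are given there.

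In T-like barcodes of Jagged1/PyMT, 38.2% of all 8266 genes tested were higher in dividing barcodes and 17.2% lower, and in those of PyMT 38.1% of 9159 were higher and 18.5% lower. Against that, 25 of 26 further S genes and 15 of 15 further G2/M genes that passed were higher in Jagged1/PyMT, and 28 of 28 and 16 of 16 in PyMT. Tk1 had 196 CPM in dividing and 2.46 CPM in other T-like barcodes of Jagged1/PyMT, and 168 CPM in dividing and 0.253 CPM in other ones of PyMT. Both members outside the call followed: Stmn1 had 484 CPM in dividing and 12.4 CPM in other T-like barcodes of Jagged1/PyMT (39.0-fold, 31.1 to 49.1), and 493 CPM in dividing and 10.5 CPM in other ones of PyMT (47.0-fold, 38.9 to 56.9).

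The genes of G1 and of cell cycle exit did not move as 1 block. Of the 17 G1 cyclins, kinases, E2F and pocket protein genes tested in Jagged1/PyMT macrophage-like barcodes, 6 were higher and 0 lower in dividing barcodes, and of 12 inhibitors and quiescence genes 2 were higher and 3 lower. Of all genes tested there, 16.1% were higher and 11.8% lower. In T-like barcodes 5 of 12 inhibitors and quiescence genes were higher and 5 lower in Jagged1/PyMT, and 6 of 13 were higher and 6 lower in PyMT. Of all genes tested in T-like barcodes, 38.2% were higher and 17.2% lower in Jagged1/PyMT, and 38.1% and 18.5% in PyMT. The counts of higher inhibitors and quiescence genes thus lie near the shares of all genes in both classes. Klf2, a factor of quiescent T cells, had 342 CPM in dividing and 1931 CPM in other T-like barcodes of Jagged1/PyMT, and 304 CPM in dividing and 1531 CPM in other ones of PyMT. Btg1, an antiproliferative factor, had 766 CPM in dividing and 2870 CPM in other T-like barcodes of Jagged1/PyMT, and 682 CPM in dividing and 2668 CPM in other ones of PyMT. Cdkn1a, the CDK inhibitor p21, was among those higher, with 59.5 CPM in dividing and 20.5 CPM in other T-like barcodes of Jagged1/PyMT (2.90-fold, 1.82 to 4.43), and 254 CPM in dividing and 23.5 CPM in other ones of PyMT (10.8-fold, 8.79 to 13.2). In Jagged1/PyMT macrophage-like barcodes Klf2 had 692 CPM in dividing and 837 CPM in other barcodes (0.827-fold, 0.778 to 0.878), while in PyMT, with 5 dividing barcodes, it had 994 CPM in dividing and 421 CPM in other ones (2.36-fold, 1.79 to 3.08). In T-like barcodes of Jagged1/PyMT 8 of 13 G1 genes were higher and 2 lower, and in those of PyMT the counts were also 8 and 2 of 13. Cdk6, a partner of D cyclins, had 179 CPM in dividing and 20.5 CPM in other T-like barcodes of Jagged1/PyMT, while Ccnd2, a D cyclin, had 47.1 CPM in dividing and 216 CPM in other ones.

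**Figure D4:**
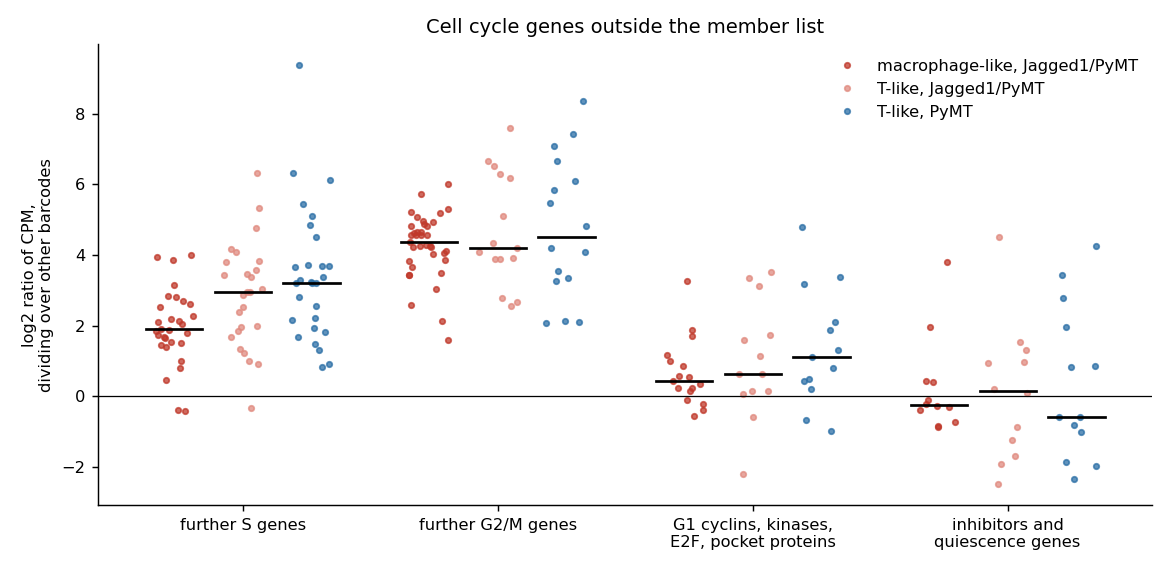
Points are genes of 4 lists outside the members with at least 50 UMIs, placed by the log2 ratio of CPM in strictly dividing over other barcodes (y axis), for macrophage-like barcodes of Jagged1/PyMT and T-like barcodes of Jagged1/PyMT and PyMT, with black bars at the medians. The further G2/M genes have medians of 4.36, 4.20 and 4.51 in that order, while the inhibitors and quiescence genes lie on both sides of 0.

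The balance of the phases was read from each dividing barcode as more S UMIs, more G2/M UMIs or an equal number. In Jagged1/PyMT macrophage-like barcodes 67 of 233 were led by S members (28.8%, 23.0 to 35.03), 157 by G2/M members (67.4%, 61.0 to 73.4) and 9 were equal. In PyMT macrophage-like barcodes 4 of 8 were led by S members and 4 by G2/M members, too few to set a balance. In T-like barcodes 32 of 86 (37.2%, 27.02 to 48.3) were led by S members in Jagged1/PyMT and 66 of 173 (38.2%, 30.9 to 45.8) in PyMT, a difference of −0.941 points (−13.0 to 11.7). Within Jagged1/PyMT the S-led share of macrophage-like barcodes minus that of T-like barcodes was −8.45 points (−20.3 to 2.82). Neither interval excludes equal shares.

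Under the strict rule 8 of 25 T-like barcodes were led by S members in Jagged1/PyMT and 12 of 27 in PyMT, a difference of −12.4 points (−35.9 to 13.4). Of the phase UMIs left after thinning, S members gave 33.9% in these barcodes of Jagged1/PyMT and 51.6% in those of PyMT. Of all their phase UMIs without thinning, S members gave 36.8% (1347 of 3662) in Jagged1/PyMT and 43.2% (1459 of 3376) in PyMT. By the cycle-restricted rule 1 of 32 T-like barcodes was led by S members in Jagged1/PyMT and 7 of 34 in PyMT, a difference of −17.5 points with an interval of −33.9 to −1.21. That rule has 10 S against 26 G2/M genes, so its level cannot be set beside that of the first rule, but both libraries were read with the same genes. Other settings gave the opposite sign. Thinned to 2000 UMIs the difference was 7.15 points (0.343 to 14.0), without thinning 6.44 points (2.55 to 10.3), and with Slbp, Pcna, Mcm6 and Rrm1 left out of the balance 8.23 points (−1.78 to 19.3). The T-like balance therefore has no direction that holds across these settings.

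The levels of single members in the strictly dividing T-like barcodes (25 in Jagged1/PyMT, 27 in PyMT) describe those barcodes and support nothing, since these genes chose them. Both lists spread widely. Among G2/M members the lowest ratio was that of Plk4, with 44.6 CPM in Jagged1/PyMT and 136 CPM in PyMT (log2 −1.61), and the highest that of Ccnb1, a B cyclin, with 81.8 CPM in Jagged1/PyMT and 28.4 CPM in PyMT (log2 1.53). Among S members the lowest was that of Cdc45, with 37.2 CPM in Jagged1/PyMT and 46.7 CPM in PyMT (log2 −0.33), and the highest that of Ccne2, an E cyclin, with 15 UMIs in Jagged1/PyMT and 8 in PyMT (log2 1.20). Mki67 had 719 CPM in Jagged1/PyMT and 377 CPM in PyMT, and Rrm2 583 CPM in Jagged1/PyMT and 442 CPM in PyMT. Markers of natural killer cells summed to 12.4 CPM in these barcodes of Jagged1/PyMT and 54.8 CPM in those of PyMT, and T cell markers to 2604 CPM in Jagged1/PyMT and 1863 CPM in PyMT, and their part in these values was not tested.

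**Figure D5:**
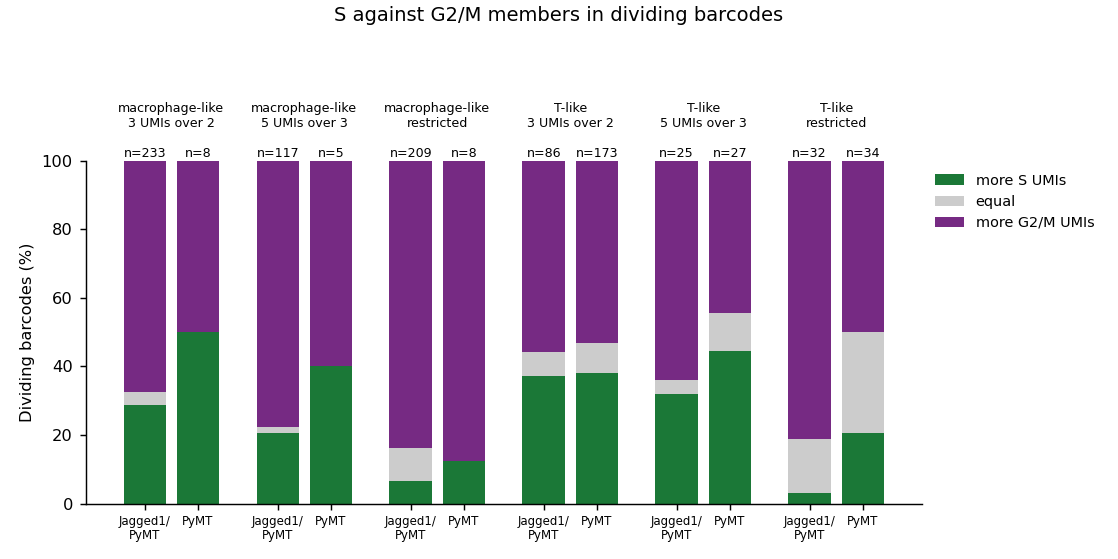
Stacked bars split the dividing barcodes of a class (y axis, percent) into those with more S UMIs, equal numbers and more G2/M UMIs, under 3 dividing rules, for Jagged1/PyMT (left of each pair) and PyMT, with the number of barcodes above each bar. G2/M members led in 67.4% of 233 Jagged1/PyMT macrophage-like barcodes, and the PyMT macrophage-like bars rest on 8 barcodes or fewer.

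UMIs of both lists also met in the same barcodes. Of Jagged1/PyMT macrophage-like barcodes with 2 UMIs over 2 S members, 29.9% also held at least 2 G2/M UMIs, against 7.67% of those with no S UMI. In T-like barcodes the shares were 21.1% and 4.23% in Jagged1/PyMT, and 13.6% and 7.18% in PyMT. In B-like barcodes they were 6.45% (of 31 barcodes) and 1.15% in Jagged1/PyMT, and 1.67% (of 60 barcodes) and 2.22% in PyMT.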

How the data were processed

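Single-cell 3′ RNA libraries were made from sorted tumour immune cells with 8000 cells loaded, per the labels' protocols, and processed with Cell Ranger 3.0.2, per the submitters' processing notes. Aligner and genome build: not given in the sources used here. The deposited matrices hold raw counts of UMIs per gene and barcode, not normalised or filtered for cells (737280 barcodes listed each). From these, barcodes were kept that held 500 UMIs and 250 genes or more, with mitochondrial UMIs at or under 10%. Classes were gated on fixed markers (at least 3 UMIs over at least 2 markers and at least 10% of the class's median marker level). Doublets were handled by setting apart barcodes of mixed lineage. Scrublet's automatic threshold marked 0% of barcodes in Jagged1/PyMT and 0.0403% in PyMT and so had not worked, and its expected share (496 barcodes in Jagged1/PyMT, 443 in PyMT) was removed as an alternative only. Thinning drew 1000 UMIs per barcode without replacement (seed 1). Shares have Clopper-Pearson 95% intervals, CPM exact Poisson and their ratios exact conditional binomial ones, ratios of shares log-normal and differences of shares Newcombe intervals. PCR copies are removed by UMIs, but cells of 1 mouse are not independent. The ratio step was tested on simulated counts. All members could be named. The rule for named genes took the 5 highest and 5 lowest member ratios of a class and, of each other list, up to 4 genes with the most UMIs in dividing barcodes of a class and library. Members and lists were chosen with earlier results of these data known. Alternatives covered thinning depth, call rule, filters, mixed barcodes, doublets, scaling and minimum UMIs. Python 3.11.15, numpy 2.4.6, scipy 1.17.1, pandas 2.3.3, scanpy 1.11.5 and matplotlib 3.10.9 were used. Promoter sequences are from RefSeq, GRCm38.p6.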

Additional observations from a re-analysis of the deposited data

How the results depend on the processing

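The macrophage-like log2 ratio of dividing shares (1.35) lay between 0.89 and 1.51 under all 12 alternatives tried, and its interval included 0 under the strict rule and in barcodes of 2000 to 8000 UMIs. The T-like ratio (−0.10) was −0.54 with barcodes thinned to 2000 UMIs, −0.50 without thinning, 0.80 with 5 UMIs over 3 genes and 0.82 with cycle-restricted members. The B-like ratio (−1.04) was 1.12 thinned to 500 UMIs and 1.13 with cycle-restricted members, each from 2 barcodes against 1, and had no value under the strict rule because PyMT had 0. The T-like difference in S-led share (−0.941 points) was −17.5 with cycle-restricted members, but 7.15 thinned to 2000 UMIs and 6.44 without thinning, with intervals that exclude 0. The macrophage-like minus T-like difference was 8.30 points without thinning and 3.57 with cycle-restricted members. Counts of members past 1.5-fold moved as follows. Thinned to 1000 UMIs, fewer members passed the filter, with 6 of 16 higher in macrophage-like barcodes, 2 higher and 4 lower of 16 in T-like ones and 2 lower in B-like ones. With dividing barcodes left out, 8 were higher in T-like barcodes, 1 was lower in macrophage-like and 2 in B-like ones. With means of scaled barcodes, 2 were lower in macrophage-like, 5 in T-like and 2 in B-like barcodes. At most 5% mitochondrial UMIs gave 2 lower in macrophage-like barcodes, and removal by Scrublet 3 lower in B-like ones. In B-like barcodes a minimum of 20 UMIs gave 3 higher, and no minimum gave 18 higher and 8 lower. The cause of these shifts was not tested. The cycle-restricted rule and the UMI range were chosen after seeing the data. The other 75 values of alternatives stayed within the interval or 1.5 times the count of the reported value, and none turned the direction of a value whose interval excludes equality. No paired analysis was possible because the matrix of a genotype mixes its samples and has no map of barcodes, and for the same reason no replicate could be left out. With 8 dividing macrophage-like barcodes in PyMT, depth limits every statement on that class.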

Other observations

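Dividing barcodes also stood among those set apart as mixed. In Jagged1/PyMT 104 of 1515 mixed barcodes (6.86%) were dividing by the first rule, and in PyMT 22 of 449 (4.90%). Of those led by macrophage markers, 60 of 676 (8.88%) were dividing in Jagged1/PyMT and 4 of 72 (5.56%) in PyMT, at median depths of 14296 UMIs in Jagged1/PyMT and 10374 UMIs in PyMT. Monocyte-like barcodes of Jagged1/PyMT, by contrast with its macrophage-like ones (13.9%), held few dividing barcodes, with 2 of 125 (1.60%, 0.194 to 5.66). In PyMT 0 of 42 were dividing, with an exact upper limit of 8.41%, above the macrophage-like share of 5.44%, so no contrast can be read there. Among conventional dendritic-like barcodes 3 of 50 were dividing in Jagged1/PyMT and 2 of 26 in PyMT. The few epithelial-like barcodes that the sort let through held 2 dividing of 39 in Jagged1/PyMT and 3 of 83 in PyMT.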
